A study of Bos taurus with 12 samples.

Results

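The transcript levels of 10 pluripotency genes were followed in bovine expanded blastocysts: NANOG, POU5F1, SOX2, SPIC, KLF17, KLF4, PRDM14, LIN28A, LIN28B and SALL4. They were found in the gene count table by an exact match of the symbol, and all 10 were present among the 32637 genes listed. All 10 also passed the filter on low counts, which left 12802 genes for testing. The embryos were made in vitro from oocytes of slaughterhouse ovaries, fertilized with thawed semen of bulls used in weekly rotation, and collected at the expanded stage on Day 7 and Day 8. The sex of an embryo was read by PCR from a microblade-cut portion, and the RNA came from the remainder, in which both blastocyst lineages were still present. A pool held pieces of 2 embryos of the same sex, and there were 6 female and 5 male pools, all untreated and all made with a full-length cDNA kit. Oocyte donors, bulls and collection days are not given per pool in the labels, so p-values measure the spread between these pools. An Iso-seq sample of 4 cell embryos of mixed sex was not analysed here.

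Pluripotency is the capacity of a cell to form every tissue of the body, and in the blastocyst it belongs to the inner cell mass, whereas the outer trophectoderm goes on to form placenta. It is kept by a network of transcription factors that bind each other's genes, with POU5F1 (OCT4), SOX2 and NANOG at its centre. Inner cell mass cells later divide into the epiblast, which keeps NANOG and SOX2, and the hypoblast, which turns on GATA6 and PDGFRA and lines the yolk sac. A pool contains all of these cells, so fewer cells of a type and less RNA per cell cannot be told apart, and none of the levels below can be assigned to the inner cell mass itself.

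The female libraries held 6664112 to 16162985 counts and the male libraries 9942952 to 21392764. The labelled sexes were read back from the counts: XIST, the RNA of X inactivation, had 687 to 3590 counts in female and 9 to 54 in male pools, and the Y-linked ZFY had 0 counts in each female pool and 151 to 780 in the males. Male replicate 5 stood apart, with the fewest genes detected (14937, against 16985 to 18550 in females and up to 17436 in males) and the highest summed level of trophectoderm markers. Some sex differences and correlations are also given without it, among them several that it moved strongly. Levels are CPM, the counts of a gene relative to the library size after TMM scaling. They are not per length of transcript, so levels are not compared between genes, and the gene of a list that is named for the highest mean CPM over the 11 pools is only the one with the most counts. Sex differences are log2 fold changes of males minus females from edgeR's quasi-likelihood test, in which a gene was called when its FDR (Benjamini-Hochberg) was under 0.1 and its fold change over 1.5.

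Once sex and the number in the library name were allowed for, NANOG and SPIC varied far more from pool to pool than other genes of like mean CPM. On the same terms SALL4 varied less than most. None of the 10 genes was called different between the sexes by edgeR, the main test. The call in edgeR stood at 0 of 10, beside 1.91% of all tested genes, with 1 of the 10, PRDM14, at an unadjusted p under 0.05, a level that 13.2% of all tested genes reached. DESeq2 called 1 of the 10, again PRDM14, beside 4.08% of the genes to which it gave an adjusted p. In none of the 10 did the CPM of the male and female pools lie apart without overlap, which 3.31% of all tested genes did. The estimate was higher in males for 7 of the 10 and in females for 3. The median log2 fold change of the 10 was 0.16, beside 0.01 over all tested genes, and the median size regardless of direction was 0.23, beside 0.28.

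**Figure D1:**
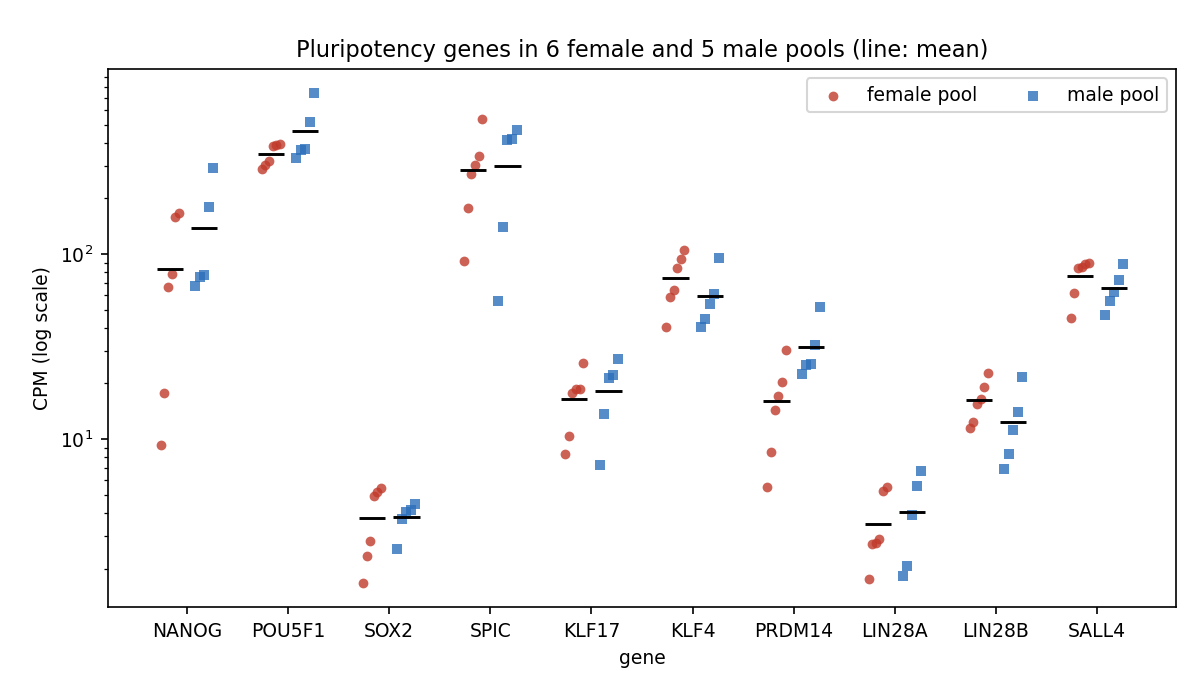
CPM of each of the 10 genes (log axis) in every pool, with female pools as circles and male pools as squares, and a line at the mean of each sex. NANOG spans 9.31 to 292 CPM, SALL4 only 45.3 to 89.5 CPM, and in every gene the sexes overlap.

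Of the central network, POU5F1, the POU-domain factor at its core, was well counted in every pool. Its gene lies on chromosome 23 at 27982798 to 27987297 (ARS-UCD2.0). Female replicates 1 to 6 held 317, 287, 394, 301, 384 and 388 CPM, and male replicates 1 to 5 held 519, 329, 369, 366 and 737 CPM. The females lay close together, while male replicates 1 and 5 were above every female pool and the other 3 males were inside the female range. The means were 345 ± 48.5 CPM (SD, n = 6) in the female and 464 ± 169 CPM (SD, n = 5) in the male pools. The log2 fold change was 0.40 ± 0.20 (SE), with a 95% interval from -0.03 to 0.83, and it did not pass the test (quasi-likelihood test of edgeR, Benjamini-Hochberg adjustment, adjusted p = 0.418). Without male replicate 5 the log2 fold change was 0.22, and without male replicate 1 it was 0.28.

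NANOG, the homeobox factor whose presence separates epiblast from hypoblast, lies on chromosome 5 at 101412795 to 101417948. It was at 78.5, 168, 17.7, 159, 9.31 and 66.5 CPM in female replicates 1 to 6, and at 66.9, 292, 75.6, 179 and 77.3 CPM in male replicates 1 to 5. Female replicates 3 and 5 lay far under all other pools, and female replicates 2 and 4 with male replicates 2 and 4 lay far over them. The lowest pool still had 93 counts, so its level did not rest on a handful of reads. From the lowest to the highest pool the level differed 31.4-fold. The means, 83.1 ± 67.7 CPM (SD, n = 6) in the female and 138 ± 97.5 CPM (SD, n = 5) in the male pools, differed by a log2 fold change of 0.83 ± 0.67 (SE), with a 95% interval from -0.63 to 2.29, and the difference did not pass (edgeR's quasi-likelihood test, Benjamini-Hochberg adjusted p = 0.655). It ran from 0.45 (without female replicate 5) to 1.34 (without female replicate 4) when single pools were left out. An interval this wide neither shows a sex difference nor limits it to a small one.

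SOX2, the HMG-box partner of POU5F1, was counted at low depth. It lies on chromosome 1 at 85302293 to 85303771, inside a longer lncRNA gene, LOC100849009, which had 32 counts in the whole series against 510 for SOX2. Over the 11 libraries SOX2 had 22 to 76 counts. The females held 1.68, 5.21, 5.45, 4.95, 2.80 and 2.33 CPM and the males 4.47, 4.12, 4.06, 2.54 and 3.68 CPM, so that every male lay within the female range. Its log2 fold change was 0.14 ± 0.36 (SE), with a 95% interval from -0.64 to 0.93 (edgeR's quasi-likelihood test, Benjamini-Hochberg adjusted p = 0.909).

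Among the factors tied to the naive, early form of pluripotency, SPIC, an ETS-domain protein, had the second widest range of the 10 genes. Its gene lies on chromosome 5 at 65323724 to 65337559. Female replicates 1 to 6 held 177, 302, 536, 271, 338 and 91.9 CPM, and male replicates 1 to 5 held 470, 140, 421, 411 and 55.8 CPM. Both sexes contained high pools (female replicate 3 and male replicates 1, 3 and 4) and low pools (female replicate 6 and male replicates 2 and 5), a 9.60-fold range in all. The log2 fold change was 0.19 ± 0.49 (SE), with a 95% interval from -0.89 to 1.27 (edgeR's quasi-likelihood test, Benjamini-Hochberg adjusted p = 0.912), and its sign turned in several fits that left out a single pool.

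KLF17 and KLF4 are zinc finger factors of the Krüppel-like family. KLF17 spans chromosome 3 from 101935631 to 102039205, a stretch that it shares with SLC6A9 (65 counts in the series, against 2369 for KLF17) and with an lncRNA gene at 0 counts. KLF17 was at 18.7, 17.7, 25.7, 10.5, 18.6 and 8.31 CPM in the females and 13.7, 22.1, 27.2, 21.3 and 7.22 CPM in the males. Female replicate 6 and male replicate 5 were low in it, as they were in SPIC. KLF4, one of the original reprogramming factors, lies on chromosome 8 at 97174495 to 97179299. It was at 58.9, 84.3, 105, 93.7, 64.3 and 40.4 CPM in the females and at 95.4, 61.2, 44.7, 54.0 and 40.2 CPM in the males, with the lowest pools again female replicate 6 and male replicate 5. Neither gene was called (quasi-likelihood test of edgeR, Benjamini-Hochberg adjustment): the log2 fold change was 0.17 ± 0.34 (SE) for KLF17 (adjusted p = 0.880) and -0.27 ± 0.25 (SE) for KLF4 (adjusted p = 0.690). The difference in KLF4 was -0.01 without male replicate 3 and -0.44 without male replicate 1.

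PRDM14, a PR-domain zinc finger protein that restrains differentiation signals and DNA methylation in pluripotent and germ cells, had the lowest p of the 10. The gene lies on chromosome 14 at 33786654 to 33805075. Female replicates 1 to 6 held 5.48, 20.3, 30.2, 17.2, 14.3 and 8.50 CPM, against 25.2, 32.4, 22.5, 25.3 and 51.9 CPM in male replicates 1 to 5. Female replicate 3 alone lay inside the male range, and the other 5 female pools were under every male pool, so that without that pool the sexes did not overlap. The log2 fold change was 1.12 ± 0.41 (SE), with a 95% interval from 0.23 to 2.01. It did not pass in edgeR's quasi-likelihood test (Benjamini-Hochberg adjusted p = 0.259, unadjusted p = 0.0177) and passed in DESeq2 (adjusted p = 0.0773), while edgeR with every gene of at least 1 count passed it (adjusted p = 0.00444) and DESeq2 without the library number did not (adjusted p = 0.143). The call thus varied with the genes kept, the block and the tool, and over the fits without a single pool the log2 fold change ran from 0.84 (without male replicate 5) to 1.47. The study itself lists PRDM14 as male-biased, from DESeq2 with the collection week as a covariate. The two-sided exact permutation test over all 462 splits of the pools gave p = 0.0238 for this gene taken singly, where the smallest possible p is 0.00216.

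LIN28A and LIN28B are paralogous RNA-binding proteins that block the processing of the let-7 microRNAs. LIN28A, on chromosome 2 at 126708949 to 126720207, had only 20 to 139 counts per library. It was at 5.25, 2.71, 1.74, 2.75, 5.50 and 2.90 CPM in the females and at 1.82, 3.91, 2.06, 5.56 and 6.74 CPM in the males. LIN28B, on chromosome 9 at 44943951 to 45086236, was at 12.4, 22.8, 15.5, 19.1, 11.5 and 16.4 CPM in the females and at 11.3, 14.1, 6.89, 8.26 and 21.7 CPM in the males. In both genes the sexes overlapped over most of their range, and male replicate 5 was the highest male pool. The log2 fold change was 0.01 ± 0.40 (SE) for LIN28A, with a 95% interval from -0.86 to 0.88, and -0.45 ± 0.33 (SE) for LIN28B, with a 95% interval from -1.16 to 0.27 (edgeR's quasi-likelihood test, Benjamini-Hochberg adjusted p = 0.997 and 0.615). Without male replicate 5 LIN28B was at -0.79, and without male replicate 3 at -0.18. The sign for LIN28A was not stable, and it was -0.11 without male replicate 5 and -0.11 with library totals as the only scaling, a scaling that moved the median of all genes to -0.10.

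SALL4, a zinc finger factor that recruits the NuRD deacetylase complex, had the narrowest range of the 10 over all 11 pools. In the female pools alone POU5F1 had the lower coefficient of variation (SD over mean), 14.1% against 23.9% in SALL4. The SALL4 gene lies on chromosome 13 at 79566132 to 79583655. The females held 84.3, 88.8, 84.7, 89.5, 61.7 and 45.3 CPM and the males 72.2, 62.7, 88.7, 46.9 and 55.7 CPM, a 1.98-fold range over all pools. The sex difference was -0.15 ± 0.15 (SE) on the log2 scale, with a 95% interval from -0.47 to 0.17 (edgeR's quasi-likelihood test, Benjamini-Hochberg adjusted p = 0.720), which leaves out a 1.5-fold change in either direction.

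**Figure D2:**
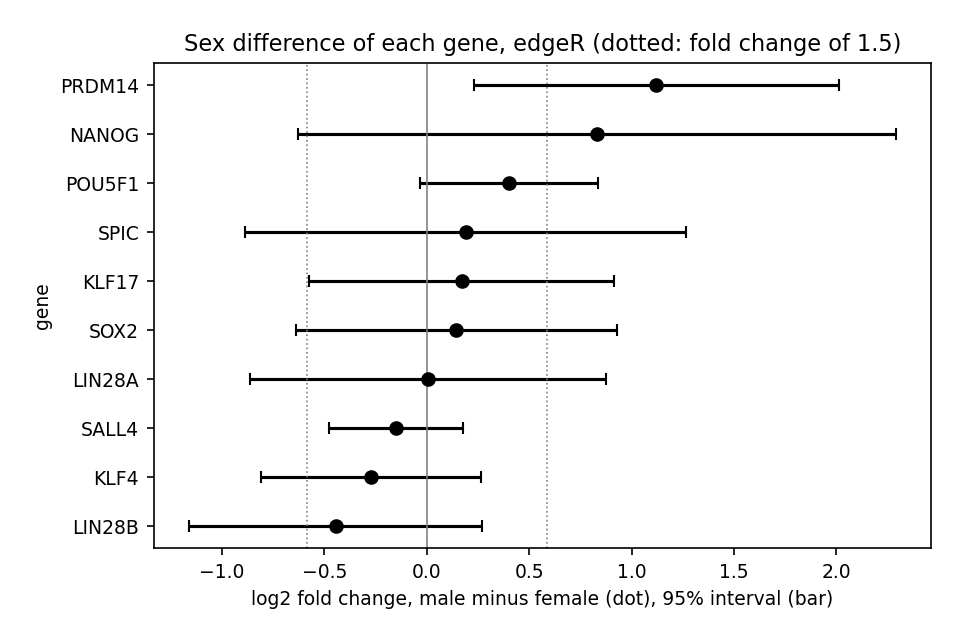
Log2 fold change of males minus females for each gene (dot) with its 95% interval (bar) from edgeR, and dotted lines at a fold change of 1.5. Only the interval of PRDM14, from 0.23 to 2.01, stays on one side of 0, and the interval of NANOG is the widest, from -0.63 to 2.29.

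The spread between pools was then set against that of other genes. The biological coefficient of variation (BCV) of edgeR is the relative spread between pools of one sex and library number beyond counting error, and it falls with the level of a gene along a trend. NANOG had a BCV of 0.690 where the trend at its level was 0.267, a ratio of 2.59, and 99.7% of the tested genes had a lower ratio. For SPIC the BCV was 0.548 and the trend 0.250, a ratio of 2.19 that exceeded those of 99.4% of genes. PRDM14 came next with a ratio of 1.33, above 91.3% of genes. POU5F1, KLF4, LIN28B and KLF17 lay between 0.997 and 1.14 times the trend. SALL4, at 0.725, SOX2, at 0.759, and LIN28A, at 0.813, lay under it, where the median over all tested genes was 0.890.

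**Figure D3:**
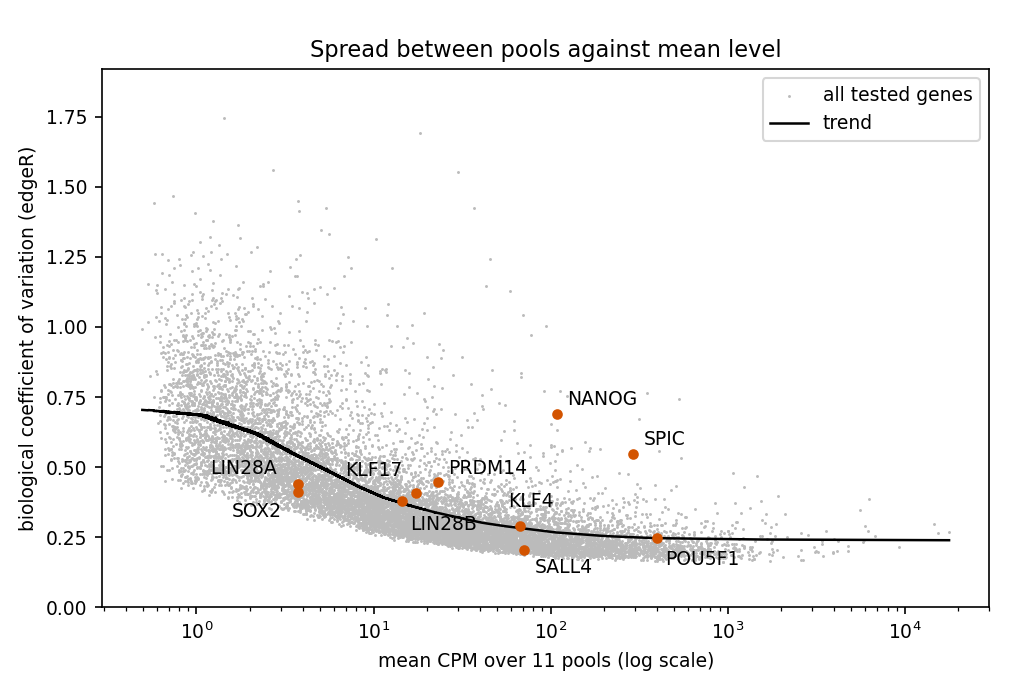
BCV against mean CPM over the 11 pools (log axis) for all tested genes (grey), with the trend as a line and the 10 pluripotency genes in orange. NANOG at 0.690 and SPIC at 0.548 stand high above the trend at their level, while SALL4 at 0.203 lies under it.

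Library names carry a first number, from 1 to 3, and 5 pairs of pools share both sex and that number. Within those pairs NANOG still differed by 2.13-fold to 8.98-fold, with a median of 4.37-fold, and SPIC by 1.70-fold to 7.37-fold, with a median of 3.35-fold. SALL4 differed within pairs by only 1.05-fold to 1.36-fold. Of the variation of log2 CPM between pools, pairs of the same sex and number carried 59.1% in NANOG, 74.3% in SPIC and 11.2% in SALL4. Sex carried 41.1% in PRDM14, the largest share it reached in any of the 10, and 0.358% in SPIC. Library number within sex carried 80.3% in SALL4, 63.4% in LIN28A and 61.8% in KLF4. These shares are descriptive. Library number and pairs have more degrees of freedom than sex, so they take larger shares even without any effect. Male replicate 3, the only male pool of its number, counts wholly toward library number.

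In SALL4 the pools of library number 3 were the 4 lowest. These were female replicates 5 and 6 and male replicates 4 and 5, at 61.7, 45.3, 46.9 and 55.7 CPM, all under the 62.7 to 89.5 CPM of the other 7 pools. The test for library number gave an unadjusted p of 0.00542 for SALL4, a level under 0.05 that it reached in 1 of the 10 genes and in 6.93% of all tested genes. After Benjamini-Hochberg adjustment edgeR's quasi-likelihood test called 0 of the 10 (adjusted p = 0.693 for SALL4), beside 0.00781% of all tested genes. What the number stands for is not given in the labels.

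No pool was high or low throughout. Male replicate 5 had the highest POU5F1, PRDM14 and LIN28A of all pools and the lowest SPIC, KLF17 and KLF4. Female replicate 3 had the highest SOX2, SPIC and KLF4 and the lowest LIN28A, lay above the median pool in 8 of the 10 genes, and was second lowest in NANOG. Female replicate 6 lay above the median pool in 2 of the 10.

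The co-variation of the 10 genes over the 11 pools was weak and mixed in sign. Of the 45 pairs, 27 had a positive and 18 a negative Pearson r between log2 CPM. None passed at a Benjamini-Hochberg adjusted permutation p under 0.05 over the 45 pairs, where the smallest adjusted value was 0.368 for r and 0.266 for Spearman's rho. An unadjusted p under 0.05 was reached by 5 pairs for r and by 8 for rho. The median size of r was 0.268, beside 0.306 over all 81939201 pairs of tested genes, and 13.3% of the pairs had a size over 0.6, beside 14.1% of all pairs. By these counts the pairs of pluripotency genes were spread much as pairs of genes in the whole table were.

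**Figure D4:**
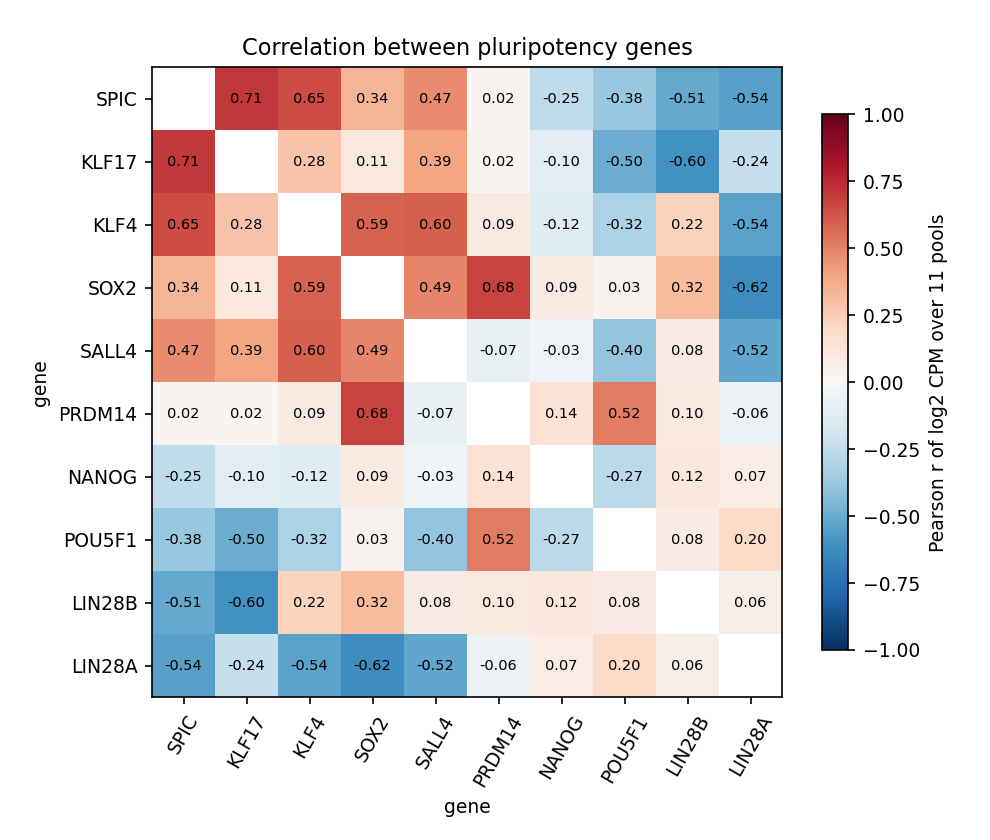
Pearson r of log2 CPM over the 11 pools for each pair of the 10 genes, from -1 (blue) to 1 (red). SPIC, KLF17, KLF4, SOX2 and SALL4 form a block of positive values up to 0.71, and LIN28A is negative with each of these 5.

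The pairs with the largest r involved SPIC and SOX2. SPIC and KLF17 had r = 0.71 and rho = 0.58 (permutation p = 0.0154 and 0.0654, adjusted 0.368 and 0.268). Their r fell to 0.13 without the 2 pools farthest from the median in SPIC, a step that also narrows the range of SPIC. It was 0.53 without male replicate 5, 0.78 in the 6 female pools and 0.72 with each sex centred. With pools of the same sex and library number centred on their mean it was 0.68. That centring leaves out male replicate 3 and leaves only 5 pairs of mirrored values. SPIC and KLF4 had r = 0.65 and rho = 0.63 (permutation p = 0.0317 and 0.0440, adjusted 0.368 and 0.266), and r was 0.28 without the 2 farthest pools and 0.89 when pools of the same sex and library number were centred on their mean. SOX2 and PRDM14 had r = 0.68 and rho = 0.43 (permutation p = 0.0213 and 0.193, adjusted 0.368 and 0.579). Their r was 0.08 without the 2 farthest pools and 0.91 with pools of the same sex and number centred. In the 6 female pools, where replicates 1, 5 and 6 were low in both genes, r was 0.95. The exact permutation p there was 0.00139, the smallest that 6 pools allow, and 0.0625 after Benjamini-Hochberg adjustment over the 45 pairs, so it did not pass.

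NANOG and POU5F1, both of the central network, did not rise and fall together: r was -0.27 and rho -0.65 (permutation p = 0.418 and 0.0370, adjusted 0.818 and 0.266). Within the females r was -0.83, with the highest NANOG in the pools lowest in POU5F1. The LIN28 paralogs had r = 0.06 and rho = 0.05 (permutation p = 0.859 and 0.904, adjusted 0.943 and 0.990). SOX2 and LIN28A, both low in counts, had r = -0.62 and rho = -0.69 (permutation p = 0.0428 and 0.0232, adjusted 0.368 and 0.266), and -0.76 without the 2 farthest pools. Male replicate 5 moved other pairs more. Without it r went from -0.38 to 0.34 in POU5F1 and SPIC, and from 0.20 to -0.36 in POU5F1 and LIN28A. It went from 0.08 to -0.44 in POU5F1 and LIN28B, and from 0.02 to 0.57 in SPIC and PRDM14.

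SPIC followed the trophectoderm markers in the opposite direction. These markers were the keratin genes KRT8 and KRT18, the transcription factor genes CDX2, GATA2, GATA3, TFAP2A and TFAP2C, and DAB2, LGALS3 and PTGS2. All 10 were tested, and their summed level was 7879 to 23154 CPM over the female pools and 9195 to 36145 CPM over the male pools. The 3 pools lowest in the markers, female replicate 3 and male replicates 3 and 1, held 421 to 536 CPM of SPIC, and the 4 highest, male replicate 2, female replicates 6 and 1 and male replicate 5, held 55.8 to 177 CPM. Between log2 CPM of SPIC and of the marker sum r was -0.92 and rho -0.88 (permutation p = 0.00013 and 0.00086, adjusted over the 50 relations of the 10 genes with 5 measures 0.0065 and 0.0387). It was -0.88 without the 2 pools farthest from the median in the markers, -0.87 without male replicate 5 and -0.93 with each sex centred. In the females alone SPIC did not stand out: r was -0.90, beside -0.98 in PRDM14, -0.91 in SOX2 and -0.87 in KLF4. With pools of the same sex and library number centred, which leaves only 5 pairs of mirrored values, r was -0.94 in SPIC and -0.91 in KLF4. KRT8 and LGALS3, of mean CPM 6288 and 5596, made up most of the sum. SPIC was negative with 9 of the 10 markers singly (median r = -0.64), from -0.87 with the epithelial keratin KRT8 to 0.13 with TFAP2C. With LGALS3 it was also -0.87. With the other transcription factor genes it was -0.69 for CDX2, -0.60 for TFAP2A, -0.46 for GATA2 and -0.28 for GATA3. The part of cell proportions in this relation was not tested.

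**Figure D5:**
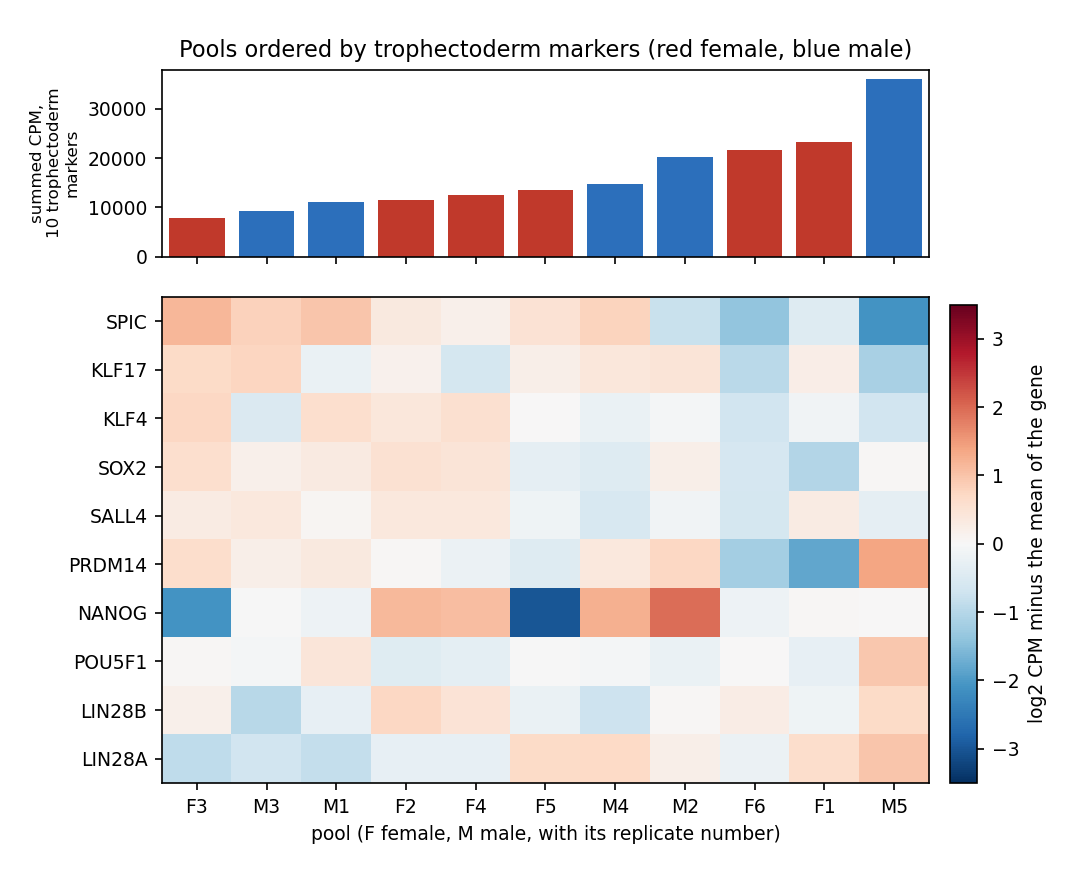
Top, summed CPM of 10 trophectoderm markers in each pool, ordered from lowest to highest, with female pools red and male pools blue. Bottom, log2 CPM of each pluripotency gene minus its mean over the 11 pools, where SPIC turns from red to blue as the markers increase from 7879 to 36145 CPM and LIN28A does the reverse.

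LIN28A ran with the trophectoderm markers, with r = 0.76 and rho = 0.85 (permutation p = 0.00704 and 0.00186, adjusted over the 50 relations 0.0864 and 0.0387), so it passed by rank only. Its r was 0.60 without the 2 farthest pools, 0.68 without male replicate 5 and 0.53 with pools of the same sex and library number centred. LIN28A was positive with 9 of the 10 markers singly, whereas NANOG was positive with 5 and negative with 5. POU5F1 was positive with 8, up to 0.76 with CDX2, and negative with 2. KLF17 and SOX2 were negative with all 10 markers singly, with a median r of -0.56 and -0.49, and neither passed with their sum. KLF4 was negative with 8 of the 10, and with their sum it had r = -0.65 and rho = -0.68. It did not pass either (permutation p adjusted over the 50 relations 0.09997 and 0.106). Without male replicate 5, r with the sum went from 0.40 to -0.27 in POU5F1 and from -0.08 to -0.62 in PRDM14.

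Against the hypoblast markers PDGFRA, COL4A1, FOXA2, GATA4, GATA6, HNF4A and SOX17, whose sum was 228 to 621 CPM over the female and 208 to 467 CPM over the male pools, SOX2, SPIC, KLF4, KLF17 and SALL4 were positive (r = 0.74, 0.74, 0.73, 0.68 and 0.66), LIN28A was negative (-0.73) and NANOG flat (0.01). None of these passed over the 50 relations (adjusted permutation p for r from 0.0864 to 0.09997 in the 6 genes). Without male replicate 5 the values of r, in the same order, were 0.90, 0.61, 0.66, 0.53, 0.64, -0.63 and 0.02. PRDM14, POU5F1 and LIN28B had r = 0.29, -0.44 and -0.13 with the sum, and 0.79, -0.003 and 0.12 without that pool. GATA6 and PDGFRA, of mean CPM 183 and 151, made up most of the sum. GATA6 ran from 143 to 212 CPM over the pools, while FOXA2 was at 0 counts in 6 pools. With the 5 tested markers singly SOX2 and KLF4 were positive throughout, KLF17 and SALL4 with 4 and SPIC with 3. SALL4 had r = -0.43 with GATA4. NANOG was positive with 3, up to 0.55 with HNF4A, and LIN28A with 1. Cumulus cell markers (AMH, CYP19A1, FOXL2, FSHR, HAS2, INHA and TNFAIP6) summed to 7.19 to 32.7 CPM over the female and 5.38 to 29.5 CPM over the male pools, with FOXL2 at 0 counts in 10 pools and INHA in 9. SPIC was negative with that sum too, with rho = -0.84 and r = -0.67 (permutation p = 0.00232 and 0.0256, adjusted 0.0387 and 0.09997). FSHR, of mean CPM 11.7, made up most of that sum. With the tested markers singly SPIC had r = -0.75 with FSHR, -0.29 with HAS2 and 0.17 with CYP19A1. The part of cumulus RNA in the level of SPIC was not tested.

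The other measures were technical, the library total and the number of genes detected, and none of their relations passed over the 50 (lowest adjusted permutation p 0.0864 for r and 0.0717 for rho). The largest were KLF4 with the library total (r = -0.72, rho = -0.76; permutation p = 0.0122 and 0.00861) and LIN28A with the genes detected (r = -0.71, rho = -0.73; permutation p = 0.00388 and 0.0148). POU5F1 had r = 0.66 with the library total and -0.68 with the genes detected, and SPIC 0.66 with the genes detected. Without male replicate 5 these values were -0.64 in KLF4, -0.65 in LIN28A, 0.43 and 0.01 in POU5F1 and 0.23 in SPIC. Their part in the relations with marker genes was not tested.

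The marker lists themselves were not called between the sexes. Among the trophectoderm markers edgeR called 0 of 10, with 1 at an unadjusted p under 0.05, the prostaglandin synthase gene PTGS2 (log2 fold change -1.20), and TFAP2A next (-0.82). Among the hypoblast markers 0 of 5 tested were called and 0 were under that p, with the lowest p in HNF4A (log2 fold change 0.67) and GATA4 (log2 fold change 0.83). Among the cumulus markers 0 of 3 tested were called, with 1 under that p, the aromatase gene CYP19A1 (-1.67), then HAS2 (1.62), and FSHR had the highest mean CPM with 4.58 to 27.3 CPM. The 6 genes in the table from the inner cell mass list, all members of the set of 10, gave 0 calls by edgeR and 0 at an unadjusted p under 0.05.

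For each of the 10 genes the 3 tested genes with the most similar pattern were found among 12801 others, by Pearson r of log2 CPM over the 11 pools after each sex was centred on its mean. These are the highest of very many values and carry no test. For POU5F1 they were RPS6KB2 (0.96), RBM42 (0.95) and EIF3CL (0.95), for NANOG EPHB6 (0.94), PLSCR4 (0.92) and APOA1 (0.91), and for SOX2 CREBRF (0.93), RFX1 (0.92) and STAT3 (0.92), the factor that carries LIF and IL6 signals. SPIC was closest to TMPRSS11E, TBL1XR1 and LOC100847143 (0.97, 0.97 and 0.96), KLF17 to OBI1, EID3 and LOC524181 (0.93, 0.93 and 0.92), and KLF4 to KLF10, SPEN and CREB3L3 (0.90, 0.90 and 0.89), the first of which is a relative of its own family. PRDM14 was closest to LFNG, IRGQ and MAEA (0.93, 0.92 and 0.90), LIN28A to IGSF22, MAGEB1 and BET1L (0.98, 0.92 and 0.89), LIN28B to SAC3D1, ADCK2 and TRPM4 (0.96, 0.95 and 0.94), and SALL4, of which 2 are given, to HNRNPU and CREBBP (0.93 and 0.91). Some of these genes were low, with a mean of 1.45 CPM in IGSF22, 1.32 in CREB3L3 and 0.965 in EPHB6. Without centring, r was much lower for some, as for MAGEB1 with LIN28A (0.41) and PLSCR4 with NANOG (0.54). For others it changed little, as for IGSF22 with LIN28A (0.97).

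No member of the set was among the 3 closest genes of another. By the same centred r the nearest were SOX2 and PRDM14, at r = 0.79, with 0.648% of the genes closer to SOX2 and 0.539% closer to PRDM14. POU5F1 had its closest member in LIN28B at r = 0.40, and 24.7% of all genes were closer to it. At r of 0.8 or more SPIC had 649 genes and at -0.8 or less 547, the most of the 10, POU5F1 had 368 and 330, and NANOG had 62 and 53.

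Other genes of the pluripotency network were read from lists. Of 28 such genes 25 were in the table and 22 were tested, and 1 was called, ZFX, which fell in males. ZFX, an X-linked zinc finger factor of stem cell renewal, was at 66.9 ± 7.94 CPM (SD, n = 6) in the female and 34.3 ± 4.05 CPM (SD, n = 5) in the male pools, a log2 fold change of -0.94 ± 0.14 (SE; edgeR's quasi-likelihood test, Benjamini-Hochberg adjusted p = 0.00801). Its Y-linked relative ZFY is listed apart, and reads common to both could be divided between them. ZFP42 (REX1), a zinc finger marker of naive cells and the gene of highest mean CPM in the list, was at 789 ± 134 CPM (SD, n = 6) in the female and 1058 ± 314 CPM (SD, n = 5) in the male pools and did not pass. The median log2 fold change of the list was -0.03. NODAL, FGF4 and NR0B1 were too low to be tested.

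Genes of formative and primed pluripotency, the states that follow the naive one, gave 0 called of 14 tested by edgeR, with 1 at an unadjusted p under 0.05. That gene was CD24, a surface glycoprotein, at 9.08 ± 3.35 CPM (SD, n = 6) in the female and 4.90 ± 0.968 CPM (SD, n = 5) in the male pools, followed by GRHL2 at 10.3 ± 2.13 and 7.26 ± 3.33 CPM. The DNA methyltransferase gene DNMT3A had the highest mean CPM of them, at 433 ± 252 and 499 ± 220 CPM. In the axis of LIN28 and let-7, 0 of 18 tested genes were called and 0 had an unadjusted p under 0.05. Its lowest p belonged to TUT4, the uridylyl transferase that LIN28A recruits to the let-7 precursor, at 31.6 ± 7.98 CPM in females and 22.1 ± 11.8 CPM in males, followed by DICER1, the enzyme that cuts microRNA precursors, at 10.97 ± 4.26 and 6.84 ± 0.878 CPM. Its gene of highest mean CPM was NRAS, a let-7 target, at 191 ± 28.2 and 207 ± 22.4 CPM.

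Inputs from LIF, IL6 and STAT3 gave 0 called of 10 tested genes by edgeR and 1 at an unadjusted p under 0.05, the kinase gene JAK1, at 40.5 ± 3.33 CPM (SD, n = 6) in the female and 29.4 ± 7.91 CPM (SD, n = 5) in the male pools. LIF itself had 0 counts in all 11 pools, which allows up to 3 counts in a library, and its receptor gene LIFR was at 1.84 ± 0.964 and 3.25 ± 2.69 CPM. The shared receptor subunit gene IL6ST had the highest mean CPM of this list, from 19.1 to 190 CPM over the pools. Chromatin partners of SALL4, NANOG and PRDM14 gave 0 called of 16 tested by edgeR, with 2 at an unadjusted p under 0.05: RBBP7, a histone-binding subunit of NuRD and of the Polycomb complex, at 570 ± 88.1 and 409 ± 64.9 CPM, and the deacetylase gene HDAC2, at 66.3 ± 12.9 and 87.6 ± 15.0 CPM.

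Relatives of the 10 genes by family were also counted. Among the KLF genes 1 of 10 tested was called, KLF8, an X-linked gene with at most 29 counts in a library, at 1.58 ± 0.704 CPM (SD, n = 6) in the female and 0.219 ± 0.178 CPM (SD, n = 5) in the male pools (log2 fold change -2.82 ± 0.56 SE, edgeR's quasi-likelihood test, Benjamini-Hochberg adjusted p = 0.0367). KLF5, a factor of both blastocyst lineages, was the relative of highest mean CPM, at 292 ± 42.2 and 311 ± 58.3 CPM. Among the ETS genes of the class of SPIC 1 of 7 was called, the X-linked ELF4, at 13.6 ± 2.16 CPM (SD, n = 6) in the female and 5.85 ± 1.77 CPM (SD, n = 5) in the male pools (log2 fold change -1.24 ± 0.25 SE, edgeR's quasi-likelihood test, Benjamini-Hochberg adjusted p = 0.0373). SPI1 and SPIB, the closest relatives of SPIC, were too low to be tested, with at most 11 and 2 counts in a library.

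The SOX, POU and PRDM relatives gave 0 called of 5, of 2 and of 6 tested genes by edgeR, and none had an unadjusted p under 0.05. Most members of those families fell under the filter: 12 of 17 SOX genes, 11 of 13 POU genes and 7 of 13 PRDM genes in the table. Of highest mean CPM were SOX15, at 21.7 ± 7.18 CPM (SD, n = 6) in the female and 14.7 ± 9.41 CPM (SD, n = 5) in the male pools, POU2F1, at 16.9 ± 4.33 and 15.2 ± 2.56 CPM, and PRDM4, at 8.88 ± 1.72 and 9.33 ± 1.51 CPM, although in the female pools PRDM2 was at 9.13 ± 1.54 CPM. The lowest p of each family belonged to SOX13 (log2 fold change -0.73), POU3F3 (-0.48), and PRDM10 (-0.49) followed by PRDM2 (-0.39). All 3 genes called in these lists were X-linked and higher in females. The 10 pluripotency genes are autosomal, and the part of chromosome in the calls was not tested.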

How the data were processed

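RNA-seq was measured in 6 female and 5 male pools, grouped by the sample labels. Trimming by the authors used fastp 0.20.0, alignment to ARS-UCD2.0 used STAR 2.7.10b, and counting per gene used featureCounts. The counts were deposited raw and taken as deposited. The kit does not mark strand, so reads of overlapping genes cannot be told apart. Gene positions came from the RefSeq annotation of the same assembly.

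In R 4.3.3, edgeR 4.0.16 was used with filterByExpr by sex, TMM factors and the quasi-likelihood test of sex with the library number as a block, which is the number after the sex letter in a library's name. The study's methods adjust for collection week, which the labels do not give, and the number stands in its place. CPM used TMM factors, and log2 CPM a prior count of 2. DESeq2 1.42.0 was an alternative, with other normalizations, filters, thresholds, numberings and fits without each pool. Correlations were tested in python 3.11.15 with 100000 permutations (exact for 6 pools), two-sided, with Pearson's r and Spearman's rho of log2 CPM. Scripts were tested on simulated data. Reads carried no molecular identifiers, so counts are not independent molecules.

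The 10 genes and all lists were chosen with earlier results of these data known. From each list were named up to 3 called genes or, with none, the 2 of lowest p, plus the gene of highest mean CPM. Lists were inner cell mass, trophectoderm, hypoblast and cumulus markers, other pluripotency network, formative and primed pluripotency, LIN28 and let-7, LIF, IL6 and STAT3 inputs, chromatin partners, and family relatives. The inner cell mass list held NANOG, SOX2, POU5F1, LIN28A, KLF17 and SPIC, all among the 10 genes, and TDGF1, not analysed here. For each of the 10 genes the 3 tested genes most like it were named, and 1 of these is not reported here.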

Additional observations from a re-analysis of the deposited data

How the results depend on the processing

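For the count of pluripotency genes called between the sexes, 0 remained 0 in every fit except 2. With every gene of at least 1 count kept, edgeR called 2 (NANOG, adjusted p = 0.00663, and PRDM14, adjusted p = 0.00444) and, by library number, 2 (NANOG and SPIC), and DESeq2 with the library number called 1 (PRDM14). The DESeq2 fits also took in more genes. For PRDM14 the adjusted p lay between 0.0773 and 0.533 over the other alternatives, and at 0.999986 when the fold change itself was tested. In edgeR and DESeq2 the cause of these differences was not tested. Over all genes the 245 calls became 132 with a replicate block by the number in the sample title, 743 with every gene of at least 1 count, 125 at an FDR of 0.05, 62 when the fold change itself was tested, 652 in DESeq2 with the library number and 739 without it, and 95 (without male replicate 3) to 364 (without male replicate 5) without single pools. With no replicate block it was 326, with 0 of the 10 genes.

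Neither numbering was shown to pair the pools. Pools of different sex with the same library number had correlated deviations of 0.01, 0.37 and 0.20, and those with the same title number -0.11, 0.24, 0.35, 0.03 and -0.07. The title replicate block turned SPIC to -0.38 and KLF17 to -0.076 on the log2 scale, and library totals turned LIN28A to -0.11. Without single pools the log2 fold change ran from -0.29 to 0.53 in SPIC, -0.074 to 0.37 in KLF17, -0.064 to 0.38 in SOX2, -0.21 to 0.24 in LIN28A, 0.22 to 0.50 in POU5F1, -0.79 to -0.18 in LIN28B and -0.44 to -0.01 in KLF4, and none of these passed. The number of genes without overlap between the sexes ran from 0 to 1 (PRDM14 without female replicate 3). The number of correlated pairs ran from 0 to 1 (SOX2 and SALL4 without female replicate 1) and was 2 (SOX2 with PRDM14, SPIC with KLF4) when pools of the same sex and library number were centred, where mirrored values make p too small.

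SOX2 and LIN28A, with 20 to 139 counts in a library, carry more counting error than the other genes, and pools of 2 cut embryos do not separate embryo from pool.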
